A study of Mus musculus with 16 samples.

Results

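Nuclei of colonic enteric neurons were compared with the other nuclei of the same muscle layer in mice given corn oil, the vehicle of the series' agonist. The comparison uses 8 of the 16 libraries, 4 labelled neuronal and 4 labelled non-neuronal. They were chosen by their labelled population and treatment, and no measured value entered the choice. The headers of the deposited table name a project on AhR knockout against wild-type animals, whereas the sample labels mention no knockout, only agonist or control. Groups follow the labels, and that mismatch could not be settled here. All mice were C57BL/6, kept free of specific pathogens, and the tissue was colon. All had received the vector AAV9-CaMKII-EGFPKASH intravenously 5 weeks before nuclei were isolated, and corn oil intraperitoneally 14 hours before. The vector codes for EGFP carrying a KASH domain, which anchors the protein in the nuclear envelope, under a CaMKII promoter. The longitudinal muscle was peeled off with the myenteric plexus, and single nuclei stained by DAPI were sorted by EGFP. Those with EGFP are labelled neuronal and those without it non-neuronal. A neuron that the vector did not reach, or in which that promoter is silent, would be sorted with the non-neuronal nuclei. The labels give no age, sex or injected amount. Whether replicates stand for different animals or pooled ones is not stated, so p-values measure the spread between these samples alone, which may be technical.

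The myenteric plexus is the network of neurons and glia between the muscle layers of the gut wall. Excitatory motor neurons release acetylcholine and tachykinins onto smooth muscle, inhibitory motor neurons release nitric oxide and vasoactive intestinal peptide, and sensory neurons and interneurons connect them. Around the plexus lie smooth muscle cells, interstitial cells of Cajal that pace the muscle, fibroblast-like PDGFRA-positive cells, macrophages and vessels. A nucleus holds unspliced and nuclear-retained RNA, so its transcript levels need not follow those of the whole cell.

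The neuronal libraries held 2982245 to 3521090 counts and the non-neuronal ones 2663738 to 4411652. Replicates of a group differed by more than counting error, with a chi-square per degree of freedom of at least 8.78 for every pair. Transcripts of the mitochondrial genome took 1.95% to 6.11% of neuronal and 11.2% to 26.3% of non-neuronal counts. Among the non-neuronal libraries, library 4 had the highest summed level of both smooth muscle genes (28530 CPM, counts per 1000000 counts) and pan-neuronal genes (1024 CPM), and the lowest of goblet cell genes (2040 CPM). Library 3 had the highest goblet cell sum (13400 CPM) and the highest mitochondrial share. Their part in the differences below was not tested, and a list's count without library 3 is given where it moved by more than 1.5 times. Without library 4 none of the recomputed list counts did.

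The labels were checked against marker genes first. Elavl4, a neuronal RNA-binding protein, stood at 346, 493, 440 and 432 CPM in neuronal libraries 1 to 4 and at 23.3, 20.2, 22.2 and 51.8 CPM in non-neuronal libraries 1 to 4. Ret, the receptor through which enteric neuron precursors receive GDNF, stood at 232, 223, 271 and 234 CPM against 15.4, 20.6, 9.06 and 40.6 CPM. Myh11, the smooth muscle myosin heavy chain, went the other way, with 99.6, 179, 233 and 509 CPM against 2890, 3020, 2790 and 7410 CPM. The groups did not overlap for any of these genes, and non-neuronal library 4 was the highest of its group for each. These levels, like all levels of single genes below, are CPM scaled by the trimmed mean of M-values (TMM), while a list's summed level is CPM without TMM.

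Of the 15285 genes tested by edgeR's quasi-likelihood test, 1811 were higher and 2065 lower in neuronal nuclei at a Benjamini-Hochberg adjusted p under 0.05. They make up 11.8% and 13.5% of the genes tested, and 25.4% were called in either direction. Without non-neuronal library 3 the counts were 1930 and 2000, and without library 4 they were 2259 and 2476. The groups of libraries did not overlap for 4717 genes, or 30.9%. The median log2 fold change over all genes, neuronal minus non-neuronal, was -0.11 with TMM scaling and 0.11 with library size alone. In these bulk samples, fewer cells of a type and less RNA per cell cannot be told apart.

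**Figure D1:**
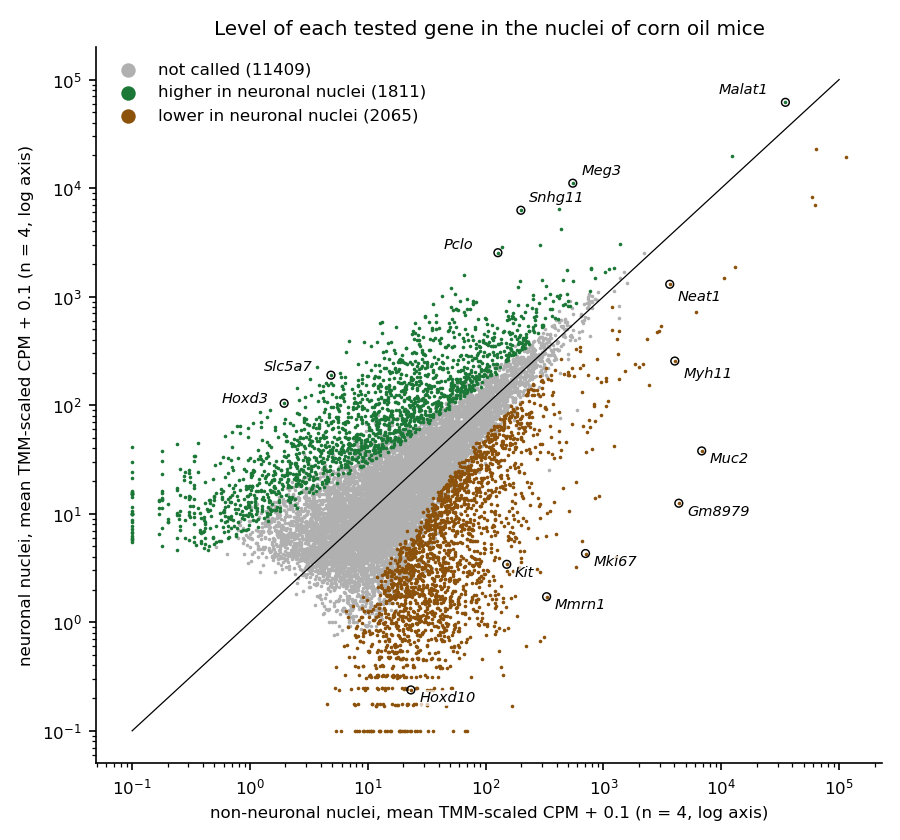
Mean TMM-scaled CPM of each tested gene in 4 non-neuronal (x axis) and 4 neuronal libraries (y axis), both log axes with 0.1 added, with the line of equal levels. Green points are the 1811 genes higher and brown points the 2065 genes lower in neuronal nuclei, and circles mark genes described in the text, with Meg3 and Snhg11 far above the line and Muc2 and Gm8979 far below it.

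The 12 protein-coding genes with the highest CPM, among those higher by at least 4-fold, include genes of the axon and of the synapse. CPM is not corrected for gene length, so these are the genes with most reads, not necessarily with most transcripts. Ank2 (ankyrin-B, which ties membrane proteins to the axonal spectrin skeleton) stood at 4030, 4220, 4090 and 4530 CPM in the neuronal libraries and at 771, 267, 164 and 544 CPM in the others, a log2 fold change of 3.27 ± 0.39 (SE, edgeR adjusted p = 6.71e-05). Pclo (piccolo, a scaffold of the presynaptic active zone) stood at 2220, 2900, 2660 and 2390 CPM against 137, 163, 77.8 and 131 CPM, a log2 fold change of 4.32 ± 0.25 (edgeR adjusted p = 8.14e-07). All neuronal libraries of both genes lay above all non-neuronal ones. Gria2, the AMPA receptor subunit that keeps the channel closed to calcium, stood at 1030, 1100, 956 and 1100 CPM against 71.2, 42.5, 9.99 and 94.7 CPM. Eml5, a microtubule-binding protein, stood at 2950, 2830, 2710 and 2950 CPM against 218, 102, 91.2 and 142 CPM. The neuronal libraries lay close together for both genes, while the non-neuronal ones spread more widely, most of all for Gria2. The other genes named by the same rule were Snhg11, Peg3, Map2, Clasp2, Lrrfip1, Stxbp5, Kcnt2 and Ryr2, with log2 fold changes of 2.05 to 4.97. They include the dendritic microtubule protein Map2 (4.58 ± 0.39), the sodium-activated potassium channel Kcnt2 (4.58 ± 0.36) and the calcium release channel Ryr2 (2.05 ± 0.29).

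Long noncoding and imprinted transcripts were mostly higher in neuronal nuclei. Of 21 tested genes on this list, 13 were higher and 3 lower, with a median log2 fold change of 2.75. The shares were 61.9% higher and 14.3% lower, against 11.8% and 13.5% of all genes. Meg3, the maternally expressed noncoding RNA at chr12:109541001-109571726 (GRCm38), stood at 9780, 13500, 13500 and 7800 CPM in the neuronal libraries and at 862, 528, 337 and 469 CPM in the others. Its neighbour Rian, at chr12:109603940-109661716 in the same imprinted cluster, differed by a log2 fold change of 3.93 ± 0.28, against 4.34 ± 0.31 for Meg3. Snhg11, a small nucleolar RNA host gene that the annotation lists as protein coding, stood at 5790, 6960, 6650 and 5620 CPM against 218, 206, 68.1 and 306 CPM. None of the neuronal libraries came near the non-neuronal ones for Meg3 or Snhg11.

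Malat1 and Neat1, both noncoding RNAs of nuclear bodies, went in opposite directions. Malat1, found in nuclear speckles, stood at 54000, 68700, 65100 and 58900 CPM in neuronal and at 35900, 26300, 29900 and 48000 CPM in non-neuronal libraries (log2 fold change 0.82 ± 0.19, edgeR adjusted p = 0.00573). Neat1, the core RNA of paraspeckles, was lower, at 1610, 1590, 1010 and 1000 CPM against 4280, 2450, 5060 and 2820 CPM (-1.49 ± 0.26, edgeR adjusted p = 0.000924). The groups did not overlap for either gene. The smooth muscle noncoding RNA Carmn was also lower (-3.16 ± 0.38), as was the imprinted zinc finger gene Plagl1 (-1.53 ± 0.53, edgeR adjusted p = 0.0498). Plagl1 lost its call in 11 of 16 alternatives, among them every leave-one-out fit except that without non-neuronal library 2, with adjusted p-values of up to 0.153.

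**Figure D2:**
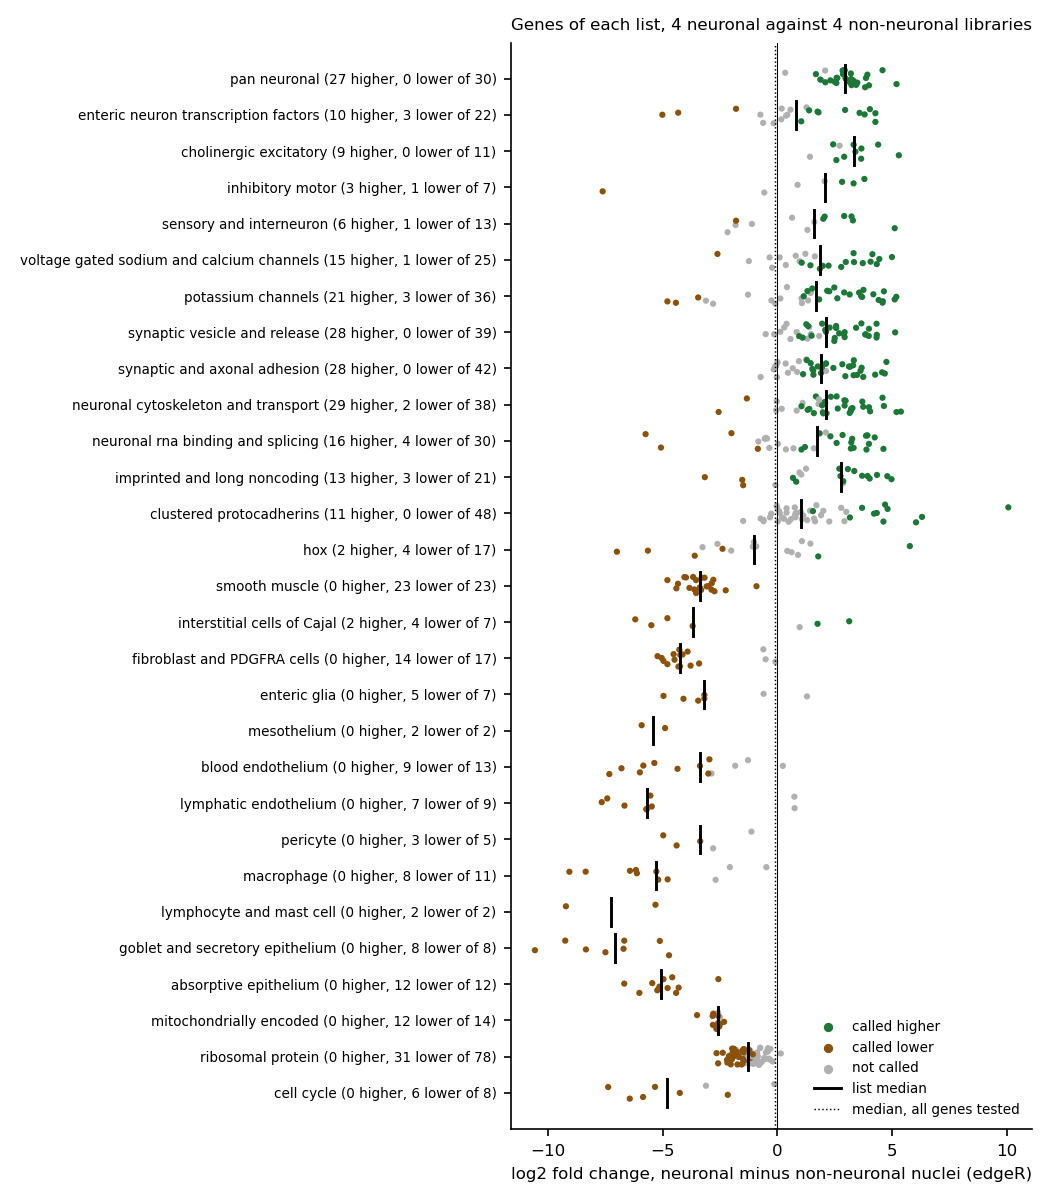
Log2 fold change (neuronal minus non-neuronal, x axis) of each tested gene of 29 lists (rows), 4 libraries per group, coloured by call. Bars mark list medians and the dotted line the median of all tested genes (-0.11), and the neuronal lists lie mostly to the right while lists of other cells lie to the left.

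Genes that neurons share were higher almost throughout. Of the 30 pan-neuronal genes, all tested, 27 were higher and none lower, against 11.8% and 13.5% of all genes, with a median log2 fold change of 2.95. The 3 not called were the granule proteins Chga and Chgb and the neurofilament Nefh, named here for that reason after their values were seen. Chgb stood at 23.3, 26, 15.5 and 25.2 CPM in neuronal and at 21.1, 11.5, 35 and 3.36 CPM in non-neuronal libraries, so the groups overlapped (0.34 ± 0.64, edgeR adjusted p = 0.752). Peripherin (Prph), the intermediate filament of peripheral neurons, also named after its values were seen, was among the highest in the list by fold (5.19 ± 0.49).

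Genes of transmitter release had 28 of 39 tested members higher (71.8%, against 11.8% of all genes), none lower, and a median log2 fold change of 2.12. Besides Pclo, they include Snap25, a membrane fusion protein of the synapse, at 772, 824, 851 and 1100 CPM against 75.6, 44.1, 32.2 and 177 CPM. Cadps, which primes dense-core vesicles, had a log2 fold change of 4.32 ± 0.40. Stxbp5 (tomosyn), which holds fusion proteins back, was higher as well (2.69 ± 0.20). Release genes and a brake on release were thus both among those higher. For Snap25 the neuronal libraries stood clear of the others, although non-neuronal library 4 reached 177 CPM.

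Neuronal adhesion molecules had 28 of 42 members higher (66.7%, against 11.8% of all genes) and none lower (median 1.91). Cadm3 and Ncam2, which join neuron to neuron, had log2 fold changes of 3.33 ± 0.27 and 4.26 ± 0.38, and L1cam, which guides migrating enteric precursors and axons, 1.57 ± 0.24. Among the clustered protocadherins, which give neurons a surface identity, 48 of 56 genes were tested. Of these, 11 were higher (22.9%, against 11.8% of all genes) and none lower (median 1.05). Pcdha5 (6.30 ± 0.79) and Pcdha11 (4.21 ± 0.75) were among them. Genes of the alpha and gamma clusters share exons, so the counts of their single members are uncertain.

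Cytoskeletal and transport genes of neurons had 29 of 38 tested members higher and 2 lower (median 2.11). The shares were 76.3% and 5.26%, against 11.8% and 13.5% of all genes. Map1b (1.95 ± 0.31) and Ank3 (1.05 ± 0.18), both of axons, were higher besides Ank2 and Map2. Nav2, a microtubule-end protein, was lower, at 28.7, 41.9, 34.8 and 52.8 CPM in neuronal against 272, 192, 251 and 220 CPM in non-neuronal libraries (-2.56 ± 0.28, edgeR adjusted p = 3.55e-05). Its groups lay far apart. Camsap3, which caps microtubule minus ends and is known from epithelia, had overlapping groups and a log2 fold change of -1.33 ± 0.45 (edgeR adjusted p = 0.0458). Its call was lost in 10 of 16 alternatives, among them the fits without any 1 of the neuronal libraries or without non-neuronal library 1 or 3 (adjusted p of 0.0549 to 0.147). Without non-neuronal library 1 or 3, Nav2 was the 1 gene of this list called lower.

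RNA-binding and splicing regulators were often higher in neuronal nuclei. Of 30 genes, 16 were higher (53.3%, against 11.8% of all genes) and 4 lower (median 1.72). The share of lower genes, 13.3%, was near that of all genes (13.5%). Celf4, a neuronal regulator of messenger RNA stability, stood at 343, 433, 385 and 427 CPM against 17.3, 21, 12.8 and 53.5 CPM, and Celf3 had a log2 fold change of 4.24 ± 0.39. The 4 lower genes were Esrp1 (-5.74 ± 0.98) and Esrp2 (-5.07 ± 0.93), which set epithelial splicing, Qk (-2.0 ± 0.38), a regulator of glial and muscle RNA, and Mbnl1 (-0.85 ± 0.26). Epithelial marker genes were lower with Esrp1 and Esrp2, as described further on, and their part in that difference was not tested. The call for Mbnl1 was lost in 6 of 16 alternatives, including the fits without neuronal library 1, 2 or 3 or non-neuronal library 4 (adjusted p of 0.0651 to 0.0933).

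Voltage-gated sodium and calcium channels had 15 of 25 tested members higher and 1 lower (median 1.85). Scn2a, a pore of neuronal sodium channels, stood at 736, 681, 603 and 656 CPM in the neuronal libraries and at 37.8, 21.9, 26.9 and 36.4 CPM in the others (4.44 ± 0.25, edgeR adjusted p = 8.14e-07). Scn3a (4.14 ± 0.32) and the calcium channel Cacna1e (1.44 ± 0.30) were higher too. The T-type calcium channel Cacna1g was lower, at 4.49, 2.6, 3.59 and 5.4 CPM against 29.6, 28, 23.7 and 17.4 CPM (-2.61 ± 0.58, edgeR adjusted p = 0.00482). Neither Scn2a nor Cacna1g had overlapping groups. Without non-neuronal library 3, 2 genes of this list were lower.

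Of 36 tested potassium channel genes, 21 were higher and 3 lower (median 1.67). The shares were 58.3% and 8.33%, against 11.8% and 13.5% of all genes. Kcnq3, a subunit of the M-current that restrains repetitive firing, stood at 737, 1050, 667 and 1000 CPM against 33.4, 25.2, 38.1 and 46.5 CPM. The subunits of the large-conductance calcium-activated channel parted. Its pore gene Kcnma1 was higher in neuronal nuclei (1.15 ± 0.29, edgeR adjusted p = 0.00955). Its smooth muscle subunit Kcnmb1 was lower, at 1.2, 3.47, 0.552 and 5.7 CPM against 45.7, 44.5, 39.7 and 174 CPM (-4.79 ± 0.76). Library 4 was the highest of both groups for Kcnmb1, and the groups did not overlap. The other lower genes were Kcnj10 (-4.42 ± 0.96), the inward rectifier of glia, and Kcna1 (-3.45 ± 0.97), whose groups overlapped. Without non-neuronal library 3, 5 potassium channel genes were lower.

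Genes of cholinergic excitatory neurons had 9 of 11 tested members higher (81.8%, against 11.8% of all genes) and none lower. Their median log2 fold change was 3.32. Chat, the enzyme that makes acetylcholine, stood at 91, 76.2, 125 and 93 CPM in neuronal and at 1.26, 13.6, 1.87 and 2.24 CPM in non-neuronal libraries (4.39 ± 0.68, edgeR adjusted p = 0.000432). Slc5a7, which takes choline back up, stood at 182, 207, 146 and 221 CPM against 10.1, 4.12, 1.25 and 3.64 CPM (5.29 ± 0.51, edgeR adjusted p = 1.58e-05). Both groups were well separated, with non-neuronal library 2 the highest of its group for Chat. Tac1, the precursor of substance P, stood at 193, 188, 171 and 224 CPM against 60.2, 0.825, 4.37 and 64.7 CPM. Its non-neuronal libraries split into a higher and a lower pair (2.57 ± 0.82, edgeR adjusted p = 0.0348). The call for Tac1 was lost in 8 of 16 alternatives, among them the fits without any 1 of the neuronal libraries or without non-neuronal library 3 or 4 (adjusted p of 0.0509 to 0.0619).

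Among genes of inhibitory motor neurons, 3 of 7 tested were higher and 1 lower. The shares were 42.9% and 14.3%, against 11.8% and 13.5% of all genes. Nos1, the neuronal nitric oxide synthase, stood at 687, 858, 944 and 603 CPM against 46.3, 49.5, 48.1 and 79.5 CPM (3.79 ± 0.26, edgeR adjusted p = 2.47e-06). Vip, which codes for vasoactive intestinal peptide, stood at 141, 211, 178 and 361 CPM against 20.2, 9.07, 13.4 and 82.9 CPM (2.82 ± 0.61, edgeR adjusted p = 0.00381). Library 4 was the highest of both groups for Vip, and the lowest neuronal library still lay above it in the other group. Cartpt, a peptide precursor with 7.78, 11.6, 6.35 and 11.7 CPM against 0.315, 0, 0.625 and 2.52 CPM, was higher (3.32 ± 1.02, edgeR adjusted p = 0.0279). It lost its call in 8 of 16 alternatives, including the fits without any 1 of the neuronal libraries or without non-neuronal library 1 or 3 (adjusted p of 0.0559 to 0.0795). Gal, the galanin precursor, was not called (2.06 ± 0.78, edgeR adjusted p = 0.0702).

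The gene called lower in the inhibitory list was Slc17a9, the vesicular transporter of nucleotides. It stood at 0, 0, 0 and 0.6 CPM in the neuronal libraries and at 27.4, 37.1, 66.5 and 13.4 CPM in the others. The 2 neuronal counts against 438 non-neuronal counts give a 244-fold difference, with an exact 95% interval of 67.0 to 2020 that covers counting error only. Among the non-neuronal libraries, library 3 was the highest and library 4 the lowest for Slc17a9, as for the summed goblet cell genes. The part of those genes' cells in the level of Slc17a9 was not tested.

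Sensory neuron and interneuron genes had 6 of 13 tested members higher and 1 lower (median 1.61). The shares were 46.2% and 7.69%, against 11.8% and 13.5% of all genes. Ntng1 (netrin-G1, an axonal membrane protein) stood at 171, 181, 185 and 261 CPM against 1.26, 8.25, 2.5 and 10.9 CPM (5.11 ± 0.56, edgeR adjusted p = 3.65e-05). Sst, the somatostatin precursor, stood at 89.8, 120, 106 and 92.1 CPM against 30.2, 16.5, 4.06 and 46.5 CPM (2.06 ± 0.55, edgeR adjusted p = 0.0131). Piezo2, a mechanically gated channel of touch neurons, was the gene called lower, at 27.5, 41, 41.1 and 49.8 CPM against 173, 112, 66.2 and 204 CPM (-1.80 ± 0.37, edgeR adjusted p = 0.00295). All 4 neuronal libraries lay below the lowest non-neuronal one. Slc18a2, which loads monoamines into vesicles, was higher (2.0 ± 0.31). For 8 genes of this list, among them the peptide genes Calca and Cck and the enzyme genes Th and Tph2, counts were too few to test. Without neuronal library 4, 3 genes of the list were higher.

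Promoters of genes from both sides of the comparison were read for 3 motifs, in windows from 250 bases before to 50 bases after each RefSeq start (GRCm38.p6). The motifs were the left part of RE1 (TTCAGCACC), the element bound by the repressor REST, the cyclic AMP response element CRE (TGACGTCA), and the CArG box bound by serum response factor in smooth muscle. Both strands were searched. CRE reads the same on either strand and the CArG box nearly so, and no 2 of the matches shown overlap. Of the 4 promoters shown, chosen after the search because they hold a match, the first belong to 3 genes higher in neuronal nuclei and the last to a smooth muscle gene. Capitals mark the matches.
Syn1 (chrX:20920869-20921168, minus strand): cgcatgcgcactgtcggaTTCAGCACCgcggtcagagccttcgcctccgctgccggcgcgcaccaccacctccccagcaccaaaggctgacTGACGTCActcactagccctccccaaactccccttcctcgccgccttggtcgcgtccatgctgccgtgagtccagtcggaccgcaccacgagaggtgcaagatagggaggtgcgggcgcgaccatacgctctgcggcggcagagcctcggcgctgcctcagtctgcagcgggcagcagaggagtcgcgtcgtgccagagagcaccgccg
Scg2 (chr1:79439977-79440276, minus strand): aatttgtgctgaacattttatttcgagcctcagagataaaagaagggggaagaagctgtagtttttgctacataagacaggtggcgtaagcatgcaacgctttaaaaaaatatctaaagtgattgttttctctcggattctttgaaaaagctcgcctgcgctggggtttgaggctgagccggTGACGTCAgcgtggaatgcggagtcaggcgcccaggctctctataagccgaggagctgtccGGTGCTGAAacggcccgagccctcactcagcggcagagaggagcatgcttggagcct
Sst (chr16:23890795-23891094, minus strand): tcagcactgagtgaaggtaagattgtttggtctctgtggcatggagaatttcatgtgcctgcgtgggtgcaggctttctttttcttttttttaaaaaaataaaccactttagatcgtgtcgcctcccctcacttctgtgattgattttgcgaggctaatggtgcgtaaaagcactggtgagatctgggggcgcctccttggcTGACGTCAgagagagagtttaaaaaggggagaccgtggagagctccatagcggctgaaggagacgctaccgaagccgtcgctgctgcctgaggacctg
Myl9 (chr2:156775214-156775513, plus strand): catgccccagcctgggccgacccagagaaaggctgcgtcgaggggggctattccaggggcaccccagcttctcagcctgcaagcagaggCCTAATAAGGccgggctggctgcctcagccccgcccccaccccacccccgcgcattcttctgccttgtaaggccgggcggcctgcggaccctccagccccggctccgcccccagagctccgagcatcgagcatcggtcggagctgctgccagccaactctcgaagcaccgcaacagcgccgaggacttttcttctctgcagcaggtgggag

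In Syn1, which codes for the vesicle protein synapsin I, the RE1 part begins at -232 and CRE at -159 relative to the start. In Scg2, the granule protein secretogranin II, CRE begins at -68 and the RE1 part lies on the opposite strand from -7. Sst holds CRE from -48, and Myl9, a smooth muscle myosin light chain, a CArG box from -161. The RE1 part was found in 15 of 1028 promoters of higher genes (1.46%) and in 2 of 1403 promoters of lower genes (0.143%), against 0.501% of tested genes and 0.433% of all 27025 promoters. CRE was found in 3.31% of higher, 1.85% of lower, 3.56% of tested and 2.03% of all promoters. The CArG box was found in 1.75%, 2.49%, 1.59% and 1.81% of them. A match describes the letters of the window and says nothing of binding.

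The levels behind these promoters were not equally firm. Syn1 stood at 93.7, 157, 113 and 69.3 CPM in neuronal and at 9.13, 15.7, 3.75 and 72.8 CPM in non-neuronal libraries, where library 4 reached into the neuronal range (2.09 ± 0.70, edgeR adjusted p = 0.0432). Its call was lost in 7 of 16 alternatives, among them the fits without neuronal library 1, 2 or 3 or non-neuronal library 1, 2 or 3 (adjusted p of 0.0545 to 0.107). Scg2 stood at 192, 196, 312 and 189 CPM against 13.9, 49.5, 31.9 and 27.2 CPM, and Myl9 at 21.5, 13.9, 15.5 and 54.3 CPM against 72.1, 98.6, 169 and 362 CPM. Neither Scg2 (2.86 ± 0.38) nor Myl9 (-2.74 ± 0.56) had overlapping groups. Rest itself, looked up after these values were seen, stood at 15.3, 4.04, 19.3 and 12.3 CPM in neuronal and at 24.9, 40.8, 45.6 and 65.8 CPM in non-neuronal libraries (-1.80 ± 0.54, edgeR adjusted p = 0.0256). Its call was lost in 6 of 16 alternatives, including the fits without neuronal library 1, 2 or 4 or non-neuronal library 4 (adjusted p of 0.0596 to 0.0722).

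Transcription factors of enteric neurons were only partly higher. Of 32 listed, 22 were tested, 10 were higher and 3 lower, with a median log2 fold change of 0.81. The higher ones were 45.5% of those tested, against 11.8% of all genes. The share of lower ones, 13.6%, was near that of all genes (13.5%). Those with the highest CPM among the higher ones were Etv1 (1.75 ± 0.32), Myt1l (4.03 ± 0.42), which represses genes of other lineages in neurons, and Klf7 (1.04 ± 0.22). Hand2, needed for enteric neuron differentiation, stood at 46.6 ± 11.7 CPM (SD, n = 4) against 19.3 ± 10.1 CPM and was not called (1.27 ± 0.47, edgeR adjusted p = 0.0645). The 3 lower genes were Meis2 (-5.01 ± 0.70), Sox6 (-4.32 ± 0.90) and Zfhx3 (-1.80 ± 0.40). Meis2, a homeobox partner of Hox proteins, stood at 4.19, 3.18, 4.97 and 23.7 CPM in neuronal and at 333, 164, 116 and 549 CPM in non-neuronal libraries. Library 4 was the highest of both groups, yet the groups lay far apart.

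Hox genes, which record position along the body axis, included a few large differences. Of 39 genes, 17 were tested, 2 were higher and 4 lower (median -1.02). The higher ones were 11.8% of those tested, as among all genes (11.8%), and the lower ones 23.5% against 13.5% of all genes. In the HoxD cluster on chromosome 2, Hoxd3 (chr2:74711927-74748442) stood at 108, 135, 109 and 63.3 CPM in neuronal and at 0, 1.24, 5.62 and 0.56 CPM in non-neuronal libraries (5.77 ± 0.80, edgeR adjusted p = 0.000187). Hoxd10 (chr2:74691924-74695105), of the same cluster, stood at 0, 0, 0.552 and 0 CPM against 14.8, 11.5, 11.6 and 54.3 CPM. Genes of 1 cluster thus lay on opposite sides, without overlap between the groups. The Hoxd3 model overlaps that of Hoxd4 on the same strand, so its count may hold reads of that gene. For Hoxd10 the 2 neuronal counts against 306 give a 170-fold difference, with an exact 95% counting interval of 46.7 to 1410. The other gene called higher was Hoxa2 (1.78 ± 0.47), and the other lower ones were Hoxb6 (-2.39 ± 0.61), Hoxd11 (-5.64 ± 1.19) and Hoxa9 (-3.60 ± 1.21), the last pair named after their values were seen. Hoxb6 lost its call without non-neuronal library 3 (adjusted p = 0.0538), and Hoxa9 in 8 of 16 alternatives, among them the fits without neuronal library 2, 3 or 4 or non-neuronal library 3 or 4 (up to 0.125). The number of lower Hox genes was 7 without neuronal library 1, 7 without non-neuronal library 1 and 2 without non-neuronal library 3.

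Many proteins of neurons have relatives in other cells, and the ratio of 2 relatives within a library does not depend on scaling. For 16 pairs, each with the member better known from neurons first, the log2 ratio of counts per kilobase of exon was compared by two-sided exact permutation tests. In 12 pairs the ratio was higher in neuronal nuclei, each with exact p = 0.0286, the smallest that 4 against 4 libraries can give. The adjusted p of these exact tests was 0.0381 over the 16 pairs. The pairs were chosen with earlier results of these data known, so these p-values do not test a choice made beforehand. Snap25 exceeded its relative Snap23 by 4.51, 4.38, 3.95 and 3.87 log2 units in neuronal libraries. In non-neuronal libraries the same log2 ratio was 0.70, -1.89, -1.56 and 1.35. Celf4 over Celf1 stood at -2.99 ± 0.55 (SD, n = 4) in non-neuronal and at 1.55 ± 0.27 in neuronal libraries, and Elavl4 over Elavl1 at -0.79 ± 0.56 and 3.39 ± 0.42. In these pairs the mean log2 ratio lay below 0 in non-neuronal and above 0 in neuronal libraries.

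The other ratios varied in level. The kinesin pair Kif5c over Kif5b stood at -3.38 ± 0.53 in non-neuronal and at -0.04 ± 0.25 in neuronal libraries, so both kinesins had about equal levels per kilobase in neuronal nuclei. The N-type calcium channel gene Cacna1b over the L-type gene Cacna1c stood at -1.86 ± 0.85 and 1.89 ± 0.16. The non-muscle myosin Myh10 stayed far under Myh11 in both groups, at -6.67 ± 0.85 and -4.0 ± 0.74. Myh10 itself was not higher in neuronal nuclei (-1.32 ± 0.46, edgeR adjusted p = 0.0538), while the smooth muscle gene Myh11 was lower (-3.98 ± 0.49). Of the 4 pairs not called, Ptbp2 over Ptbp1 differed by 1.47 (exact p = 0.114) and Rab3a over Rab27a by -0.99 (exact p = 0.743). Rab27a was itself higher in neuronal nuclei (2.76 ± 0.77, edgeR adjusted p = 0.0175). For Ptbp2 and Ptbp1, splicing regulators of which the first is known to prevail in neurons, the ratio was 2.16, 2.10, 1.65 and 2.73 in neuronal and 2.34, 0.08, -0.56 and 0.89 in non-neuronal libraries, and library 1 of the latter lay among the neuronal ones. Without any 1 of the neuronal libraries no pair was called. The exact p was still 0.0286 for 8 or 9 pairs, with adjusted p of 0.0508 to 0.0571 over the 16 pairs. Without any 1 of the non-neuronal libraries, 12 or 13 pairs were called.

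**Figure D3:**
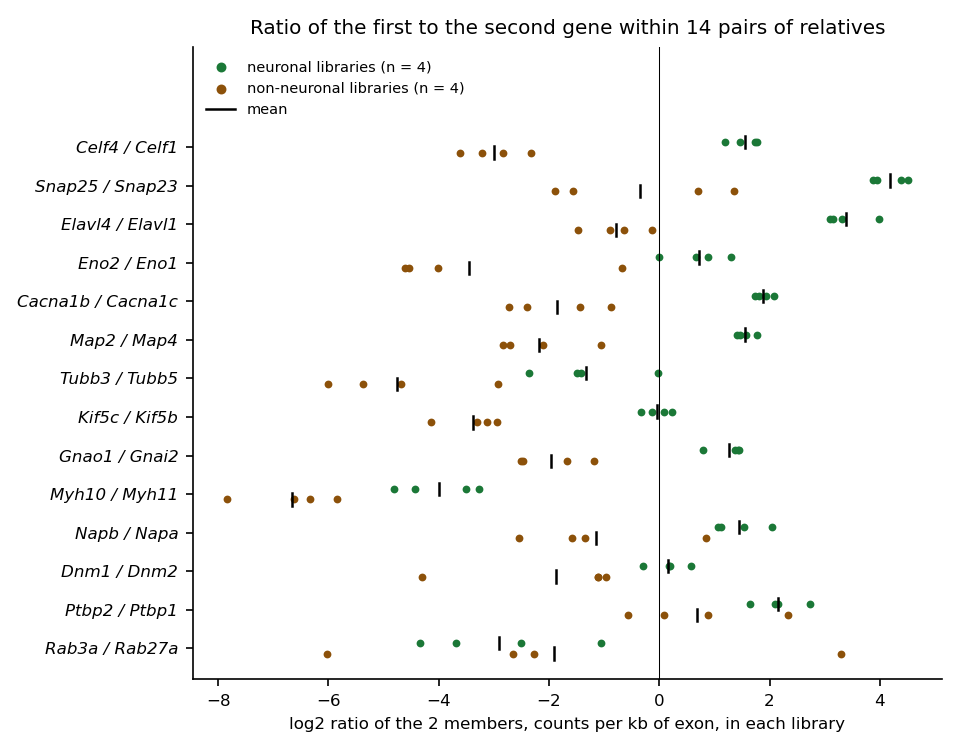
Log2 ratio of the first-named to the second-named gene in 14 of the 16 gene pairs, in counts per kilobase of exon (x axis), for each of 4 neuronal (green) and 4 non-neuronal (brown) libraries, with group means as bars. The groups are apart in 12 of the plotted pairs and overlap in the Ptbp2 and Rab3a pairs.

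Signalling genes were read by role, as 69 ligands, enzymes, receptors and effectors of 15 systems. Of these, 56 were tested, 19 were higher and 9 lower (median 0.67). The shares were 33.9% higher and 16.1% lower, against 11.8% and 13.5% of all genes. The GDNF system had its receptor on the neuronal side, as given for Ret above. Its ligand Gdnf stood at 2.99, 4.04, 3.04 and 2.1 CPM in neuronal and at 35.6, 11.1, 2.5 and 36.4 CPM in non-neuronal libraries (-2.80 ± 0.83, edgeR adjusted p = 0.0236). Non-neuronal library 3 fell within the neuronal range. The call for Gdnf was lost in 9 of 16 alternatives, among them the fits without any 1 of the neuronal libraries or without non-neuronal library 1 or 4 (adjusted p of 0.0521 to 0.0742). The co-receptors Gfra1 (0.88 ± 0.78, edgeR adjusted p = 0.46) and Gfra2 (0.67 ± 0.81, edgeR adjusted p = 0.602) were not called. The neurotrophin receptor gene Ntrk3 stood at 418, 423, 407 and 426 CPM against 45.3, 130, 10.3 and 73.4 CPM (2.7 ± 0.52, edgeR adjusted p = 0.00191). Its neuronal libraries differed little and its non-neuronal ones more than 10-fold. Ntrk2 was higher (1.95 ± 0.50), and the ligand Bdnf was not called.

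The gene that makes nitric oxide was higher, and most of the tested genes that receive the signal were not called. Besides Nos1, 5 genes of the nitric oxide receptor and its pathway were tested, and 4 were not called. These were Gucy1a1 (-0.17 ± 0.40, edgeR adjusted p = 0.806), Gucy1b1 (-0.20 ± 0.31, edgeR adjusted p = 0.697), Prkg1 (-0.19 ± 0.43, edgeR adjusted p = 0.801) and Pde5a (-0.01 ± 0.20, edgeR adjusted p = 0.976). Gucy1a1, a subunit of the nitric oxide receptor, stood at 198, 170, 192 and 204 CPM in neuronal and at 224, 148, 72.5 and 414 CPM in non-neuronal libraries. Its groups overlapped, and the standard errors allow differences in either direction. The fifth, Mrvi1 (Irag1), through which the kinase Prkg1 relaxes muscle, was lower (-5.00 ± 0.92, edgeR adjusted p = 0.00136). The PACAP receptor Adcyap1r1 was higher (2.07 ± 0.57), while the VIP receptor Vipr2 was not called (-0.27 ± 0.58, edgeR adjusted p = 0.785).

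Of the acetylcholine receptor genes, 2 of 3 tested nicotinic subunits were called and none of 3 muscarinic receptors was, and the difference between both kinds was not tested. The nicotinic subunits Chrna3 (3.66 ± 0.36) and Chrnb4 (3.4 ± 0.40), which form the ganglionic receptor between enteric neurons, were higher. The nicotinic subunit Chrnb2 was not called (1.42 ± 1.00, edgeR adjusted p = 0.345). The muscarinic receptors Chrm1 (1.27 ± 0.73), Chrm2 (0.27 ± 0.55) and Chrm3 (-1.28 ± 0.58) were not called, with edgeR adjusted p-values of 0.244, 0.772 and 0.128. Slc18a3, which loads acetylcholine into vesicles, was higher (2.91 ± 0.88, edgeR adjusted p = 0.0266), a call lost in 6 of 16 alternatives, including the fits without neuronal library 1, 3 or 4 or non-neuronal library 2 (adjusted p of 0.0517 to 0.081). Slc18a3 lies inside an intron of Chat on the same strand, so reads of both genes may be mixed.

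All 4 tested opioid genes were higher in neuronal nuclei, ligand and receptors alike. Oprk1, the kappa receptor, stood at 391, 422, 348 and 467 CPM against 83.8, 25.2, 5.93 and 18.2 CPM (3.61 ± 0.59, edgeR adjusted p = 0.000644). Oprm1 (3.45 ± 0.55) and Oprd1 (2.71 ± 0.67), the mu and delta receptors, were higher as well. The enkephalin precursor Penk stood at 87.6 ± 8.55 CPM (SD, n = 4) against 16.1 ± 21.6 CPM (2.43 ± 0.81, edgeR adjusted p = 0.0428). Leaving out any 1 of the neuronal libraries, or non-neuronal library 1, 2 or 3, ended the call for Penk (adjusted p of 0.0615 to 0.0806). Of purine receptors, P2rx7 was lower (-2.63 ± 0.53, edgeR adjusted p = 0.0025), and P2ry1 and P2rx2 were not called.

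Guidance genes were called in both directions. Slit2, a secreted repellent of axons, stood at 696, 599, 613 and 792 CPM in neuronal and at 57, 117, 23.1 and 68.6 CPM in non-neuronal libraries (3.35 ± 0.39, edgeR adjusted p = 5.85e-05), and its receptor Robo1 was higher too (1.84 ± 0.42). Netrin 1 (Ntn1) was lower, at 3.59, 0.578, 3.31 and 6.6 CPM against 68, 12, 48.4 and 51.5 CPM (-3.67 ± 0.73, edgeR adjusted p = 0.00236), while its receptor Unc5c was higher (3.17 ± 0.76). The semaphorin Sema3a was lower, at 18.9, 9.53, 15.5 and 57 CPM against 173, 73, 116 and 245 CPM (-2.59 ± 0.55). None of Slit2, Ntn1 and Sema3a had overlapping groups. Sema3c was also lower (-3.65 ± 0.58), and the semaphorin receptors Nrp1, Nrp2, Plxna2 and Plxna4 were not called. Of the same systems, Slit3 (1.23 ± 0.57), the receptor Robo2 (1.15 ± 0.51) and the netrin receptor Dcc (1.62 ± 0.95) were not called, with edgeR adjusted p-values of 0.137, 0.124 and 0.246.

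**Figure D4:**
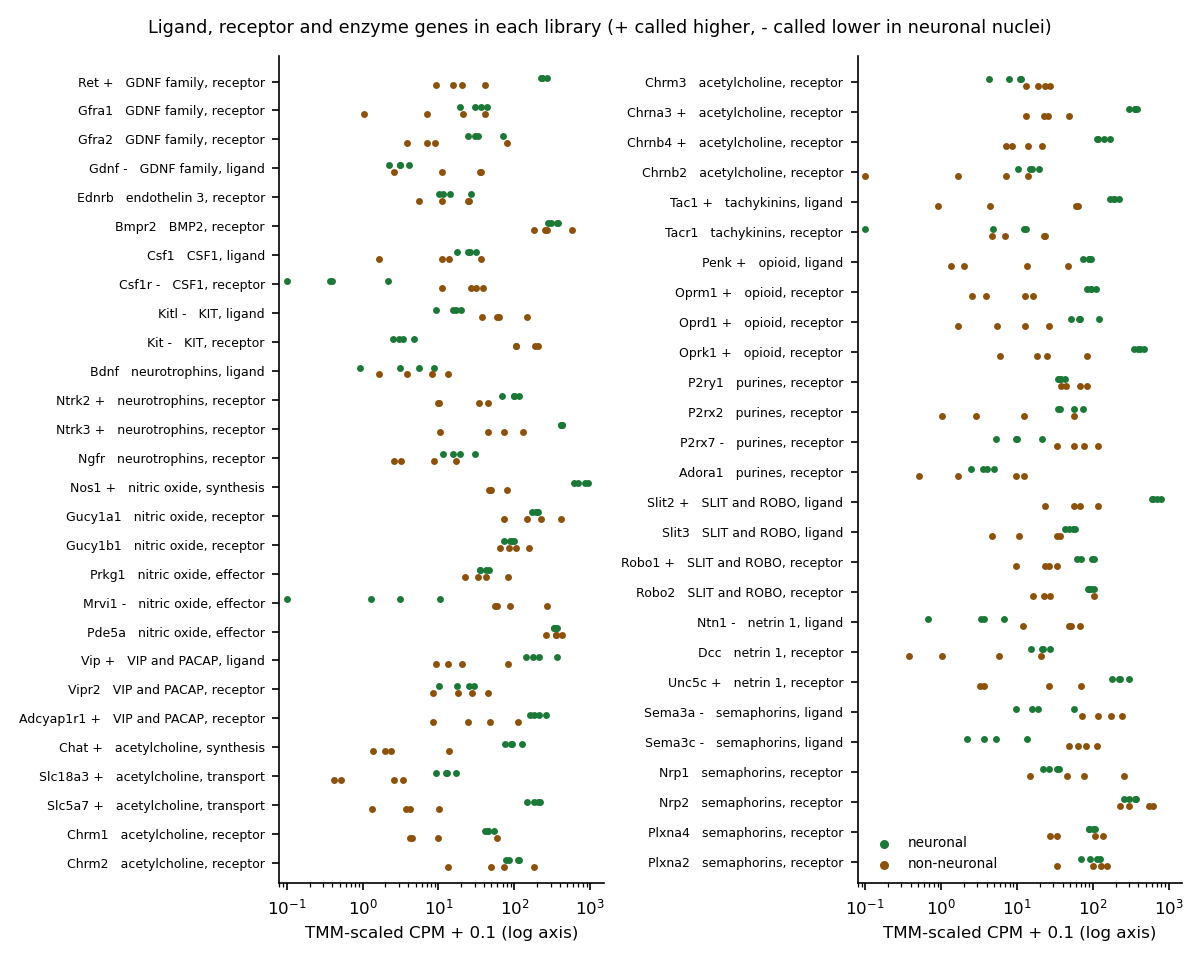
TMM-scaled CPM plus 0.1 (log axis) of tested signalling genes in each of 4 neuronal (green) and 4 non-neuronal (brown) libraries, labelled by system and role, with + for higher and - for lower calls. The opioid genes and the acetylcholine and nitric oxide synthesis genes stand apart with neuronal libraries to the right, and the nitric oxide receptor genes Gucy1a1 and Gucy1b1 overlap.

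Smooth muscle genes were lower in neuronal nuclei without exception among the 23 tested, with a median log2 fold change of -3.38. Besides Myh11, those with most reads were Tpm1 (-3.17 ± 0.39), Flna (-2.87 ± 0.28) and Synpo2 (-3.32 ± 0.44), all of the actin apparatus. Ttn, the giant spring protein of striated muscle, stood at 48.5, 41, 36.4 and 40.5 CPM in neuronal and at 526, 252, 3350 and 821 CPM in non-neuronal libraries (-4.89 ± 0.67, edgeR adjusted p = 0.000181). Non-neuronal library 3, the lowest of its group for the summed smooth muscle genes (7052 CPM), was the highest for Ttn. Ttn was not called by limma's voom (adjusted p = 0.0832).

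Interstitial cells of Cajal were represented by 7 tested genes, of which 4 were lower and 2 higher. The shares were 57.1% and 28.6%, against 13.5% and 11.8% of all genes. Kit, their receptor tyrosine kinase, stood at 2.39, 2.89, 4.69 and 3.3 CPM in neuronal and at 190, 106, 105 and 203 CPM in non-neuronal libraries (-5.49 ± 0.42, edgeR adjusted p = 3.49e-06). Ano1, their calcium-activated chloride channel, stood at 0.598, 2.02, 1.66 and 8.4 CPM against 65.8, 83.7, 60 and 144 CPM. Every neuronal library was far below every other one for both genes. The 2 higher genes, Etv1 and Slitrk1 (3.13 ± 0.77), are also expressed by neurons, and with them the list's summed level was higher in neuronal libraries (713.6 to 879.5 CPM) than in the others (211.7 to 674.0 CPM). The ligand Kitl was lower as well (-2.33 ± 0.48).

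Genes of fibroblasts and PDGFRA-positive cells had 14 of 17 tested members lower and none higher (median -4.24), among them Pdgfra (-4.52 ± 0.69) and the collagen Col3a1 (-5.04 ± 0.57). Enteric glia were weakly represented. Only 7 of 14 glial genes were tested, and 5 were lower (71.4%, against 13.5% of all genes). Sox10, the glial lineage factor, stood at 0, 1.16, 3.04 and 0 CPM in neuronal and at 28, 16.1, 5.31 and 25.2 CPM in non-neuronal libraries (-4.09 ± 1.13, edgeR adjusted p = 0.0164). The groups were apart for Sox10.

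Vessels and immune cells lay on the non-neuronal side. Blood endothelial genes had 9 of 13 tested members lower, including Pecam1 (-3.37 ± 0.71), and lymphatic genes 7 of 9 (median -5.69). Mmrn1, a secreted protein of lymphatic endothelium, stood at 0.598, 0.289, 1.38 and 4.2 CPM in neuronal and at 354, 232, 234 and 497 CPM in non-neuronal libraries (-7.65 ± 0.62, edgeR adjusted p = 4.49e-06). Macrophage genes had 8 of 11 tested members lower (72.7%, against 13.5% of all genes, median -5.27). Csf1r, the receptor that keeps muscularis macrophages alive, stood at 2.09, 0, 0.276 and 0.3 CPM against 38.7, 11.1, 26.9 and 30.8 CPM, and its ligand Csf1 was not called (0.67 ± 0.71, edgeR adjusted p = 0.546). Neither Mmrn1 nor Csf1r had overlapping groups. Of 5 tested pericyte genes 3 were lower, among them Rgs5 (-3.36 ± 0.65), and 5 without non-neuronal library 3. Both mesothelial genes tested, Muc16 and Krt19, were lower, and Krt19 is also an epithelial keratin. The mesothelial marker Upk3b was not tested, with 0 neuronal and 35 non-neuronal counts. Of the lymphocyte and mast cell genes, both of those tested were lower, and 4 were without neuronal library 1 or 4. The immunoglobulin gene Ighm had no count in any neuronal library, and its level was at least 104-fold higher in non-neuronal libraries, against a floor of 3 counts over the group.

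Epithelial genes, which the peeled muscle layer itself should lack, stood far higher in the non-neuronal libraries. All 8 tested goblet cell genes and all 12 tested absorptive genes were lower in neuronal nuclei, with medians of -7.09 and -5.05. The goblet median was -6.71 with 1 member that had no neuronal count set to its bound. Some of these genes were tested only because of their non-neuronal counts, such as Fcgbp (23 neuronal against 2130 non-neuronal counts) and Epcam (39 against 1221). For them the direction was set by the filter, as for some vessel, immune and mesothelial genes above. Muc2, the gel-forming mucin of goblet cells, stood at 9.57, 45.6, 80 and 15.9 CPM in neuronal and at 6100, 5240, 14400 and 1580 CPM in non-neuronal libraries (-7.49 ± 0.86, edgeR adjusted p = 8.52e-05). Mki67, a protein of dividing cells, stood at 2.69, 5.78, 4.42 and 3.9 CPM against 689, 1050, 867 and 206 CPM (-7.37 ± 0.52), and 6 of 8 tested cell cycle genes were lower. Non-neuronal library 4 was the lowest of its group for Muc2 and Mki67, where it was the highest for Myh11. The epithelial and cell cycle sums thus moved apart from the smooth muscle sum among those 4 libraries. Muc2 and Agr2 were not called by limma's voom (adjusted p of 0.17 and 0.162).

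Mitochondrially encoded and ribosomal protein genes were either lower in neuronal nuclei or not called. The part of RNA from outside the nucleus in these levels was not tested. Of 14 tested mitochondrially encoded genes 12 were lower (median -2.60), and of 78 tested ribosomal protein genes 31 were lower and none higher (median -1.30). The shares lower were 85.7% and 39.7%, against 13.5% of all genes. The number of lower ribosomal protein genes was 15 with library-size scaling, and 13 to 16 without any 1 of the neuronal libraries. A family of near-identical gene models around Gm10800 took 0.203% to 2.16% of neuronal and 3.54% to 12.9% of non-neuronal counts. Because reads cannot be divided reliably among such copies, Gm10800, Gm10801, Gm10717, Gm10719, Gm21738 and Gm26870, which the rule for abundant genes also named, are reported only as this share. The pseudogene model Gm8979 stood at 3.29, 15.9, 24.8 and 5.7 CPM against 3290, 6490, 6320 and 1330 CPM (-8.44 ± 0.74). By limma's voom Gm8979 was not called (adjusted p = 0.128). Among the non-neuronal libraries Gm8979 was lowest in library 4, as were Muc2 and Mki67. It was highest in library 2, as was Mki67, while Muc2 was highest in library 3.

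Each population still carried some RNA typical of the other. The 30 pan-neuronal genes summed to 7058 to 7982 CPM in neuronal and to 311.4 to 1024 CPM in non-neuronal libraries, whose mean was 8.17% of the neuronal mean. Among the 27 pan-neuronal genes called, the non-neuronal level was between 2.68% (Prph) and 31.1% (Nefm) of the neuronal one, with a median of 11%. In the other direction, the neuronal level of the 23 smooth muscle genes was between 3.59% (Kcnmb1) and 53.1% (Slmap) of the non-neuronal one, with a median of 9.63%. The summed level of each whole list in neuronal libraries was 12.2% of the non-neuronal mean for smooth muscle genes, 3.35% for lymphatic and 0.753% for goblet cell genes. A low level within the sorted nuclei and RNA from other nuclei in the same library cannot be told apart.

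Genes higher in neuronal nuclei spanned more of the genome than others. Among protein-coding genes, the median span from first to last annotated base was 69.0 kb for higher genes, 35.2 kb for lower genes and 26.1 kb for genes not called. Of genes spanning over 300 kb, 38.8% were higher and 14.2% lower, while of genes under 10 kb 4.84% were higher and 14.9% lower. Levels moved with span as well, since the median CPM was 50.8 for the longest and 11.6 for the shortest genes, and the part of the level in the number of calls was not tested. Gene models that the annotation marks TEC, whose status is still unclear, made up 16.1% of higher, 3.73% of lower and 8.71% of all tested genes. They include Gm37928 (4.60 ± 0.48) and Gm37899 (3.76 ± 0.43). Such models often lie within introns of longer genes, and strand use in counting is not given in the sources used here, so reads of such a model and of a host gene cannot be told apart.

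**Figure D5:**
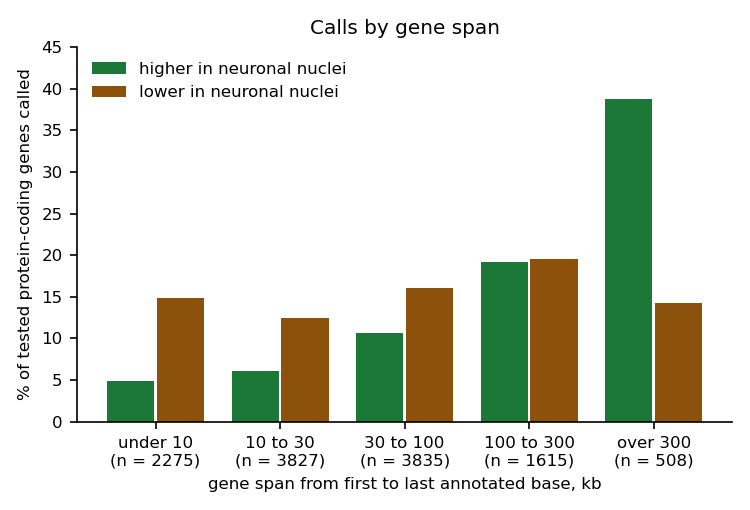
Share of tested protein-coding genes called higher (green) or lower (brown) in neuronal nuclei (y axis, %) by gene span in kb (x axis), with the number of genes below each pair of bars. The share of higher genes goes from 4.84% under 10 kb to 38.8% over 300 kb, while the share of lower genes stays between 12.5% and 19.5%.

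The same contrast exists in mice given the agonist 3-methylcholanthrene, and its difference from the corn oil contrast was tested over all 16 libraries. By edgeR, 0 of 18566 genes differed at an adjusted p under 0.05 (0.0%), and 1484 had an unadjusted p under 0.05 (7.99%). Without a filter on low counts edgeR called 110 genes, and DESeq2, also without that filter, called 160. With the filter but without non-neuronal agonist library 3, edgeR called 9. The count thus depended on the filter and on that library.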

How the data were processed

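RNA of sorted nuclei was sequenced as 75 bp single-end reads, per the labels' protocols. The authors deposited an expected count (the estimated count of reads per gene) for each of 51912 Ensembl genes and library, not scaled to library size. RSEM 1.3.0, STAR 2.5.2, DESeq2 1.10.1 and the build GRCm38 are named, per the submitters' processing notes. Which annotation release and strand option were used is not given in the sources used here. Where genes overlap or are near-identical, expected counts can be divided between them.

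Counts were rounded to whole numbers. The 8 libraries were fitted in edgeR 4.0.16 (R 4.3.3) with TMM scaling, filterByExpr by group (minimum count 10, minimum total 15), robust dispersions and a two-sided quasi-likelihood test without covariates. Adjusted p-values are Benjamini-Hochberg values over all genes tested, called under 0.05. A standard error is the log2 fold change divided by the square root of F. GENCODE M21 gave symbols and positions for 51719 identifiers and none for 193. Paralog ratios used counts plus 0.5, and the difference from the agonist contrast an interaction term over 16 libraries. Promoters came from RefSeq (GRCm38.p6).

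Named genes are the 21 markers, the paralog pairs, the signalling genes, the 12 coding and 6 noncoding genes with the highest CPM and at least 4-fold difference in each direction, and up to 4 called members of each list with the highest CPM plus those called against most of it, and 2 of the paralog pairs and some of the other genes are not reported here. Genes outside this rule are Prph, Chga, Chgb, Nefh, Nefm, Slmap, Gal, Syn1, Scg2, Myl9, Rest, Hoxd11 and Hoxa9, chosen after their values were seen. The members, the 29 lists and the 16 pairs were chosen with earlier results of these data known. On simulated data of 14471 genes, 64, 63 and 63 genes were changed by 1, 2 and 4 log2 units. The fit recovered 1.56%, 23.8% and 84.1% of them, and 5.48% of its calls were false. Far fewer genes were changed there than were called in the real data, so these rates need not hold for the real fit. Alternatives were another scaling, no filter, DESeq2 1.42.0, limma 3.58.1 voom, a fit of all 16 libraries, a fit without mitochondrially encoded genes, a fit blocked on the replicate number, and each library left out in turn.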

Additional observations from a re-analysis of the deposited data

Results flagged for a closer look

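Among the 52 genes whose library values are given, 104 groups of 4 libraries were examined for a value that stands apart from the other 3. In 13 groups the highest library did, and groups of the same library are not independent. Chance is taken to give about 1 in 20, a rate that need not hold for CPM from few counts. The neuronal groups of Slc17a9 and Hoxd10 had only 2 counts each. Whether 13 exceeds the number given by chance was thus not tested. In 6 of these it was non-neuronal library 4. Its level was 51.8 CPM for Elavl4 (next highest 23.3 CPM), 79.5 CPM for Nos1 (49.5) and 82.9 CPM for Vip (20.2). It was also 7410 CPM for Myh11 (3020), 174 CPM for Kcnmb1 (45.7) and 54.3 CPM for Hoxd10 (14.8). Non-neuronal library 2 stood apart for Chat, at 13.6 CPM against 2.24 CPM or less in the others.

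In the neuronal group, library 4 stood apart for Ntng1 at 261 CPM (next highest 185 CPM), for Meis2 at 23.7 CPM (4.97) and for Slc17a9 at 0.6 CPM, where the others had no count. Neuronal library 3 stood apart for Scg2 at 312 CPM (196) and for Hoxd10 at 0.552 CPM, where the others had no count. Neuronal library 1 stood apart for Csf1r at 2.09 CPM (0.3).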

How the results depend on the processing

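The number of genes higher in neuronal nuclei was 1811, and 1047 when all 16 libraries shared 1 fit. The number lower was 2065, 3499 without a filter on low counts and 4205 by DESeq2, also without that filter. Calls in the higher direction were 46.7% of all calls, 36.7% without the filter and 36.2% by DESeq2. With 1 library left out, 1413 to 2259 genes were higher and 1927 to 2476 lower. For the difference from the agonist contrast, edgeR called 0 genes, 110 without the filter, 160 by DESeq2 and 0 to 9 with 1 library left out. The 12 paralog pairs called became 0 with any 1 neuronal library left out and 12 to 13 with any 1 non-neuronal library left out. Same-numbered libraries deviated together by a correlation of 0.00153 to 0.0698, and 2 neuronal libraries matched their own number best. The mitochondrial share ranked alike by number, at 1.95%, 2.56%, 6.11% and 2.84% against 11.2%, 14.3%, 26.3% and 16.1%. Smooth muscle and goblet cell sums also peaked under the same number in both groups. Sums of glial, Cajal cell, blood endothelial, macrophage and cell cycle genes did not. Whether the numbers pair the samples is not stated and was not settled, and the main fit was unpaired. With the replicate number as a block, 1923 genes were higher and 1808 lower, and 0 paralog pairs were called, since 4 pairs cannot give an exact p under 0.125.

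Of 184 called named genes, none reversed in 2940 refitted values, 134 kept their call throughout and 50 lost it in at least 1 alternative, in many cases only in the fit of all 16 libraries. Of 656 recomputed list counts, 610 stayed within 1.5 times the reported count. The pan-neuronal genes called higher numbered 17 in the fit of all 16 libraries. The cause of these shifts was not tested. Changes of 2-fold were rarely recovered in a simulation with far fewer changed genes than were called here. A gene not called may still differ.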
